A study of Rattus norvegicus with 12 samples.

Results

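Creatine kinases and the voltage-dependent anion channels (VDACs) were examined as messenger RNAs in mitochondrial preparations of rat skeletal muscle. The members were the rows of the deposited count table named Ckm, Ckmt2, Ckb, Vdac1, Vdac2 and Vdac3. These are 6 of 30560 genes, and all 6 passed the filter on low counts. They were measured in 12 libraries of ribosomal RNA-depleted RNA, 3 in each of 4 groups, from 1 wild-type male Wistar Kyoto rat aged 14 weeks. Mitochondria in crude_RNase came from differential centrifugation alone. IP_RNase held mitochondria captured on antibody-coated magnetic beads, IP_RNase_ProK held captured mitochondria also given proteinase K, and mitoplast_RNase held mitoplasts, which lack the outer membrane, made from captured mitochondria. Every group had received RNase A, which degrades RNA it can reach, so no group shows the RNA before that digestion, and no library of whole muscle was analysed here. The last 3 groups, 9 libraries in all, are called captured below.

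Creatine kinase moves a phosphate group between ATP and creatine. In muscle, the mitochondrial enzyme sits between the outer and inner membranes and charges creatine with newly made ATP, and the cytosolic enzyme uses the resulting phosphocreatine to restore ATP at the contractile filaments and calcium pumps. VDACs are the pores of the outer membrane through which ATP, ADP, phosphate and creatine compounds pass. All 6 proteins are encoded in the nucleus and their messengers are translated in the cytosol. How their reads came to be in a mitochondrial preparation was not tested.

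Total counts were 3325430 to 4563254 per captured library and 6583452 to 7123045 per crude library. The mitochondrial chromosome took 41.2% to 54.0% of the counts in crude libraries and 2.06% to 10.9% in captured ones. Crude libraries were made from 6.3 ng of RNA and the others from 40 ng, so an effect of the isolation method and an effect of the input cannot be told apart. Olfactory receptor genes, which muscle does not normally transcribe, had a median of 30 to 34 counts in crude and 37 to 49 in captured libraries. The source label of the crude libraries names immunoprecipitation, whereas their titles and the design text name crude mitochondria, which was followed. Separate aliquots of 1 homogenate gave the libraries, so the p-values below cover only the spread among these preparations, which may be technical.

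All 6 messengers were lower in each captured group than in crude_RNase when libraries were scaled by TMM, a method that centres the bulk of genes near no change. The muscle isoform Ckm fell most among the 6, 10.9-fold to 11.3-fold, Ckmt2 fell 2.64-fold to 2.80-fold, and Vdac1 fell least, 1.43-fold to 1.53-fold. This was 6 of 6 genes lower in each comparison with crude_RNase (edgeR quasi-likelihood test, Benjamini-Hochberg adjusted over 26483 genes, threshold 0.05). Of all genes tested, 5.09% were lower in IP_RNase, 5.04% in IP_RNase_ProK and 4.54% in mitoplast_RNase by the same rule, and 1.26%, 1.45% and 0.997% were higher. In CPM (counts scaled to 1000000 per library by TMM-adjusted library size) all 6 members also had ranges in crude_RNase that did not overlap those of each captured group, as had 19.4%, 20.5% and 19.0% of all genes. The median log2 fold change of the 6 was -1.18, -0.94 and -0.81, beside 0.007, 0.003 and 0.005 for all genes tested. The direction held relative to the bulk of genes and not on every scale: with library size scaling Vdac1 and Vdac2 lay above 0 in each captured group and Ckb and Vdac3 in IP_RNase_ProK and mitoplast_RNase, and with scaling on mitochondrial mRNAs all 6 did in each. The 3 comparisons share the crude_RNase libraries and are not independent of each other.

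**Figure D1:**
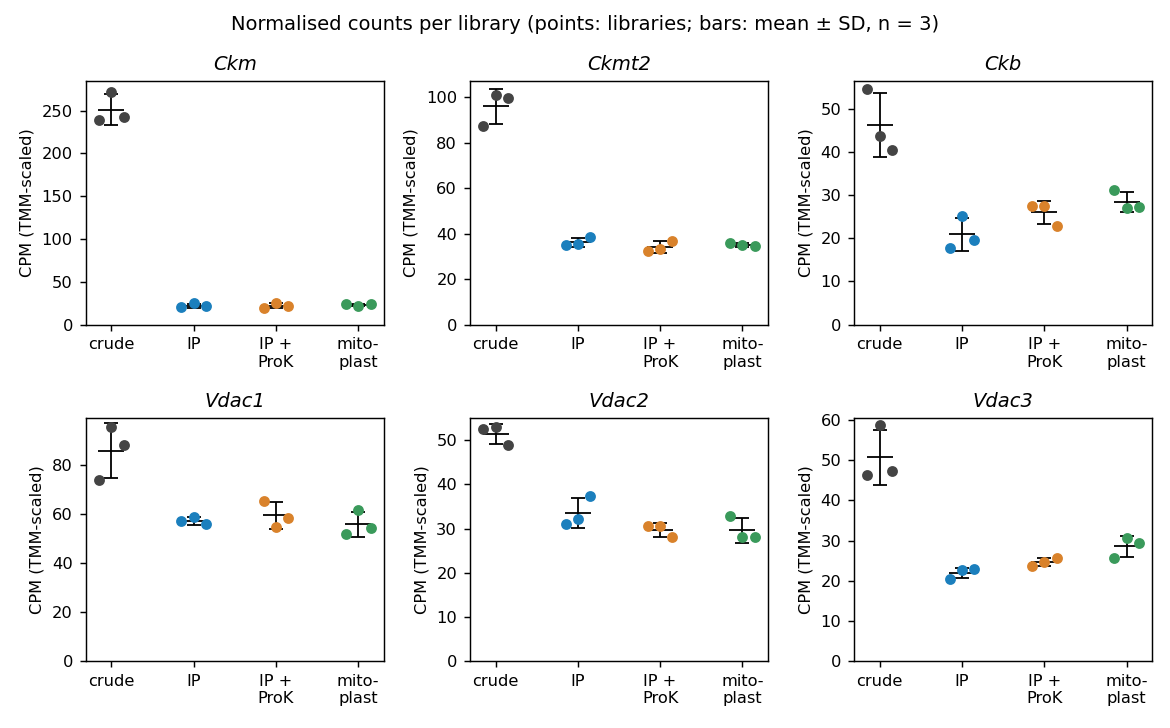
Level in TMM-scaled CPM (vertical axis from 0) of the 6 genes in each of the 12 libraries. Points are libraries, and horizontal and vertical bars are the mean and SD of the 3 libraries of a group (crude is crude_RNase, IP is IP_RNase, IP + ProK is IP_RNase_ProK, mitoplast is mitoplast_RNase). On this scale every crude library lies above all 9 captured libraries in each panel, with the widest gap for Ckm, at 239 to 272 CPM against 19.7 to 25.7.

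Ckm (ENSRNOG00000016837) encodes the creatine kinase of the muscle cytosol, part of which is held at the M band of the sarcomere. It had 1067, 1017 and 866 counts in the 3 crude libraries. In the captured libraries it had 87, 100 and 95 counts in IP_RNase, 110, 116 and 102 in IP_RNase_ProK, and 114, 109 and 108 in mitoplast_RNase. The crude libraries stood far above all others, and the 9 captured ones lay close together. In CPM, crude_RNase was at 251 ± 18.1 (SD, n = 3 in each group) and the captured groups, in the order above, at 22.3 ± 2.35, 22.4 ± 3.08 and 23.0 ± 1.34. The log2 fold change against crude_RNase was -3.49 ± 0.0958 (SE) in IP_RNase, -3.50 ± 0.0934 in IP_RNase_ProK and -3.45 ± 0.0932 in mitoplast_RNase (edgeR adjusted p = 1.33e-35, 3.77e-36 and 7.16e-36). Only 33, 39 and 38 of the 26483 genes tested had a lower fold change than Ckm in these comparisons. Its captured counts were 1.98 to 2.90 times the median olfactory receptor count of the same library, against 28.9 to 31.4 times in crude libraries. Ckm counts were also 11 to 12.4 times the median of the tested non-mitochondrial genes in crude libraries and 0.917 to 1.20 times in captured ones, so this muscle messenger stood at the count of the median gene there. The same ratio was 4.01 to 4.6 and 1.50 to 1.79 for Ckmt2, 1.85 to 2.51 and 0.826 to 1.45 for Ckb, 3.39 to 4.35 and 2.41 to 3.05 for Vdac1, 2.23 to 2.41 and 1.30 to 1.73 for Vdac2, and 2.12 to 2.67 and 0.957 to 1.42 for Vdac3. Gene length was not corrected for in these ratios. How far a common low level of most genes limits the fold changes was not tested.

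Ckmt2 (ENSRNOG00000055450) encodes the mitochondrial creatine kinase of skeletal and heart muscle, which lies in the intermembrane space. It had 389, 377 and 356 counts in crude_RNase, against 150, 142 and 168 in IP_RNase, 180, 151 and 173 in IP_RNase_ProK and 173, 179 and 157 in mitoplast_RNase. Its level was 96.0 ± 7.58 CPM in crude_RNase and 36.3 ± 1.93, 34.2 ± 2.47 and 35.2 ± 0.884 CPM in the captured groups (SD, n = 3 each). The crude range did not overlap that of any captured group, and the captured groups overlapped each other. The log2 fold changes against crude_RNase were -1.40 ± 0.0903, -1.49 ± 0.0888 and -1.44 ± 0.0887 in the same order (edgeR adjusted p = 8.82e-19, 3.09e-20 and 1.09e-19).

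Ckmt1 (ENSRNOG00000014573), the mitochondrial isoform of brain and many other tissues, is no member but gives a comparison with Ckmt2. It had 121, 96 and 95 counts in crude_RNase and between 125 and 203 in the captured libraries. It was at 0.32 ± 0.120, 0.36 ± 0.116 and 0.48 ± 0.115 against crude_RNase on the log2 scale, of which the mitoplast_RNase value passed (edgeR adjusted p = 0.112, 0.0509 and 0.0033). The paralog thus lay on the other side of 0 from Ckmt2 on the TMM scale. On the scale of olfactory receptor counts Ckmt1 stood at 2.91 to 3.56 times the median in crude and 3.12 to 4.35 times in captured libraries, while Ckmt2 stood at 11.4 to 11.9 and 3.41 to 4.22 times.

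Ckb (ENSRNOG00000010872) encodes the cytosolic creatine kinase of brain, smooth muscle and other tissues, and is a minor isoform in adult muscle fibres. It had 243, 163 and 144 counts in crude_RNase, 76, 101 and 86 in IP_RNase, 154, 124 and 107 in IP_RNase_ProK and 149, 137 and 124 in mitoplast_RNase. The group means in that order were 46.2 ± 7.40, 20.9 ± 3.84, 26.0 ± 2.69 and 28.4 ± 2.37 CPM (SD, n = 3 each). The lowest crude library, at 40.4 CPM, was above the highest captured one, at 31.1. The log2 fold changes against crude_RNase were -1.16 ± 0.128, -0.84 ± 0.120 and -0.71 ± 0.119 (edgeR adjusted p = 3.01e-10, 3.47e-07 and 1.06e-05), and with library size scaling they were -0.15, 0.23 and 0.35. Ckb had the widest relative spread of the 6 genes within crude_RNase, where the first library was the highest.

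Markers of the cell types that could supply these messengers were read in the same fit. The libraries are RNase-treated preparations of mitochondria, so a marker change need not be a change in cell types. A smaller contribution of a cell type, less RNA per cell and an effect of the isolation or the input cannot be told apart in such bulk preparations. On the TMM scale, 9 of 9 muscle fibre markers tested fell against crude_RNase in each captured group, with medians of -3.16, -3.29 and -2.79 on the log2 scale, and their summed level was 5118 to 6509 CPM in crude and 478 to 668 in captured libraries. Of 10 fibroblast and matrix markers, 7, 8 and 8 fell, and the sums were 2045 to 2209 and 591 to 645 CPM. Of 10 smooth muscle and pericyte markers and 9 endothelial markers, cells in which Ckb can be found, edgeR and DESeq2 called 0 in the 3 comparisons (2, 0 and 2, and 1, 0 and 0 had an unadjusted edgeR p under 0.05), and their sums overlapped between crude and captured libraries, at 561 to 628 against 559 to 599 CPM and 626 to 666 against 603 to 646. Of 12 Schwann cell and nerve markers 0, 1 and 1 fell by edgeR (2, 3 and 2 with an unadjusted p under 0.05, 0 by DESeq2), with sums of 357 to 407 and 334 to 407 CPM. For the 6 satellite cell markers the count was 0 in each by edgeR and DESeq2 (2, 0 and 0 unadjusted), with sums of 236 to 291 and 242 to 265, and of 7 erythroid and leukocyte markers 2 fell in each and 1 rose in IP_RNase_ProK, with sums of 341 to 351 and 312 to 339. None of the 63 marker genes was at 0 in any library, the lowest count being 31. Of all genes tested, 5.09%, 5.04% and 4.54% fell by edgeR in the 3 comparisons and 1.26%, 1.45% and 0.997% rose. An unadjusted edgeR p under 0.05 was found for 17.9%, 17.8% and 16.7% of all genes. The part of these cell types in the changes of the 6 genes was not tested. Whether the sums that stayed level reflect a common low level of most genes was not tested either.

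Vdac1 (ENSRNOG00000006375) encodes the most abundant VDAC of most tissues, which binds hexokinase at the outer membrane. It had 329, 357 and 315 counts in crude_RNase, 245, 237 and 244 in IP_RNase, 366, 247 and 273 in IP_RNase_ProK and 248, 314 and 248 in mitoplast_RNase. In raw counts the highest IP_RNase_ProK library exceeded all crude libraries. Crude libraries had larger total counts, but that library had the larger TMM-adjusted size, 5592799 against 3567723 to 4458409 in crude. After TMM scaling no captured library reached the crude range: the crude libraries had 85.9 ± 11.1 CPM and the captured groups 57.3 ± 1.56, 59.5 ± 5.41 and 55.9 ± 5.13 (SD, n = 3 each). The log2 fold changes against crude_RNase were -0.58 ± 0.0936, -0.52 ± 0.0911 and -0.61 ± 0.0922 (edgeR adjusted p = 5.8e-06, 3.04e-05 and 1.26e-06). They turned to 0.46, 0.57 and 0.47 with library size scaling.

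Vdac2 (ENSRNOG00000013505) encodes the isoform known to hold the cell death protein Bak at the outer membrane. It had 234, 198 and 174 counts in crude_RNase, 133, 129 and 163 in IP_RNase, 171, 138 and 131 in IP_RNase_ProK and 157, 143 and 128 in mitoplast_RNase. Its level was 51.4 ± 2.31 CPM in crude_RNase and 33.5 ± 3.38, 29.7 ± 1.51 and 29.6 ± 2.74 in the captured groups (SD, n = 3 each), without overlap with crude_RNase. The log2 fold changes were -0.62 ± 0.103, -0.79 ± 0.103 and -0.80 ± 0.103 (edgeR adjusted p = 1.11e-05, 3.09e-08 and 3.03e-08), and with library size scaling they were 0.40, 0.29 and 0.27.

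Vdac3 (ENSRNOG00000019277) encodes the third isoform, whose pore has been reported to conduct less readily than that of the others. It had 206, 219 and 169 counts in crude_RNase, 88, 91 and 100 in IP_RNase, 132, 111 and 120 in IP_RNase_ProK and 123, 156 and 134 in mitoplast_RNase. In CPM these were 50.7 ± 6.86, 22.0 ± 1.31, 24.6 ± 1.02 and 28.6 ± 2.56 (SD, n = 3 each). The ranges of the 4 groups did not overlap, with crude_RNase highest, then mitoplast_RNase, IP_RNase_ProK and IP_RNase. The lowest mitoplast_RNase library, at 25.7 CPM, was barely above the highest IP_RNase_ProK library, at 25.6. With TMM scaling no comparison of Vdac3 between captured groups passed. For pairs of groups, 9.47% to 20.5% of all genes had ranges without overlap, and the share for all 4 groups was not computed. The log2 fold changes against crude_RNase were -1.20 ± 0.117, -1.04 ± 0.111 and -0.82 ± 0.109 (edgeR adjusted p = 5.38e-12, 1.1e-10 and 5.2e-08). With library size scaling they were -0.17, 0.05 and 0.25.

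The VDAC genes have copies elsewhere in the rat genome that can share reads with them. The RefSeq table of assembly GRCr8, used for names only, lists 15 pseudogenes named after Vdac1, 5 after Vdac2 and 1 after Vdac3, and 1 protein-coding gene named as Vdac1-like and 1 as Vdac3-like. The deposited table holds 0 rows under those names. The sources used here do not say how reads with several matches were counted, so the VDAC values carry that uncertainty. For the creatine kinases the RefSeq table lists 0 such copies, but the search was by gene name and would miss copies named otherwise.

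**Figure D2:**
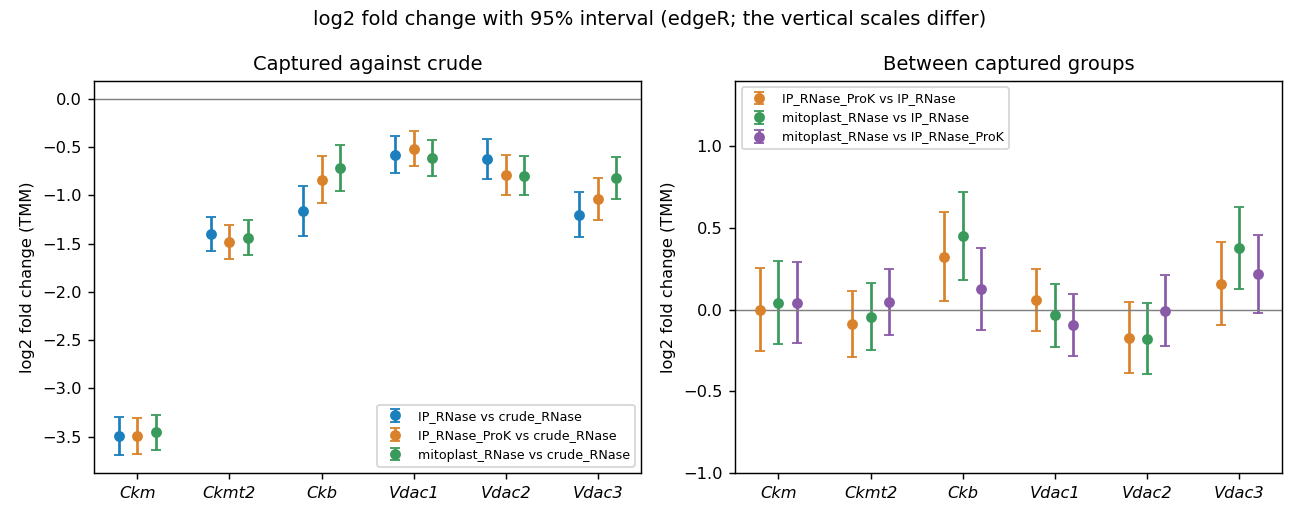
Log2 fold change (TMM scaling, vertical axis) of the 6 genes with its 95% interval, for the captured groups against crude_RNase on the left and between captured groups on the right. On the left all points lie below 0, from -3.50 for Ckm to -0.52 for Vdac1, which holds for TMM scaling but not for library size or mitochondrial mRNA scaling; on the right they lie between -0.18 and 0.45.

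The choice of scale was examined because mitochondrial RNA took such different shares of the libraries. From crude_RNase to IP_RNase the median of all 26483 genes was at 0.007 on the log2 scale with TMM, -0.21 with olfactory receptor genes as the reference, 0.14 with counts outside the mitochondrial chromosome, 1.03 with library size and 3.81 with the 13 mitochondrial mRNAs. Relative to that median under TMM, Ckm was at -3.50, Ckmt2 at -1.40, Vdac3 at -1.21, Ckb at -1.17, Vdac2 at -0.63 and Vdac1 at -0.58. Under mitochondrial mRNA scaling the same comparison gave 0.36 for Ckm, 2.42 for Ckmt2, 2.68 for Ckb, 3.29 for Vdac1, 3.17 for Vdac2 and 2.63 for Vdac3, each below the median gene. Per mitochondrial mRNA, IP_RNase libraries held more of 5 of the 6 messengers, and the value of Ckm did not pass (edgeR adjusted p = 0.312). In IP_RNase_ProK and mitoplast_RNase all 6 passed as higher on that scale, with Ckm at 1.47 and 1.50. Nearly all of the 26483 genes were also called higher on that scale in each comparison with crude_RNase. Being called higher there thus does not set a member apart from other genes.

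**Figure D3:**
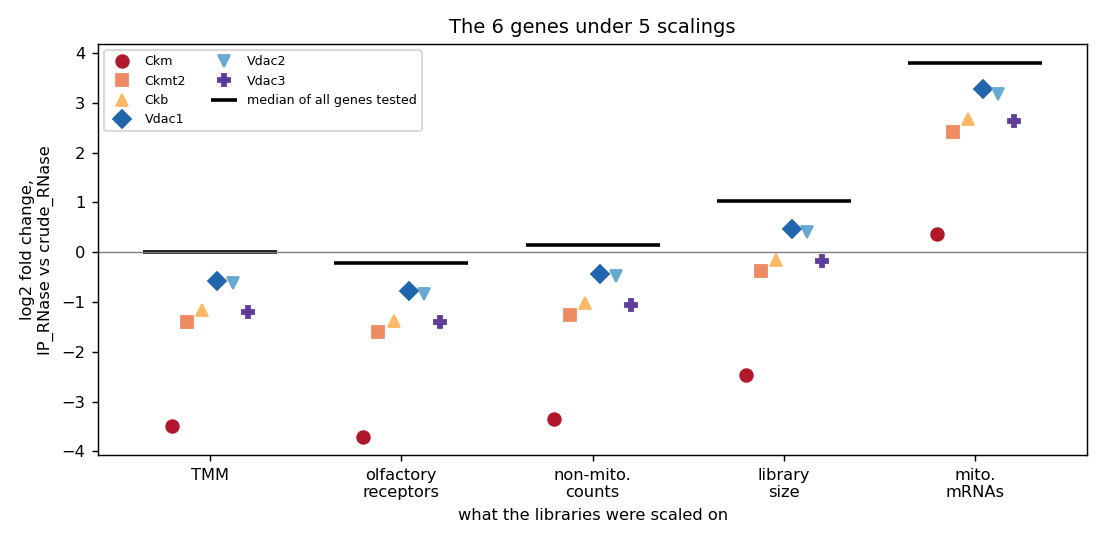
Log2 fold change of IP_RNase against crude_RNase (vertical axis) for the 6 genes under 5 ways of scaling the libraries (horizontal axis). Black lines mark the median of all genes tested. The 6 genes keep their distance below that line, about -3.50 for Ckm and -0.58 for Vdac1 under TMM, while the line itself moves from -0.21 to 3.81 and carries some or all genes across 0.

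Ratios of 2 members counted in the same library do not depend on scaling, and they asked whether the members changed alike. A common low level of most genes was not subtracted from the counts, and its part in the ratios was not tested. The log2 ratio of Ckm to Ckmt2 counts was 1.39 ± 0.0939 in crude_RNase and -0.70 ± 0.172, -0.62 ± 0.206 and -0.62 ± 0.0890 in IP_RNase, IP_RNase_ProK and mitoplast_RNase (SD, n = 3 each). Ckm had more counts than Ckmt2 in all 3 crude libraries and fewer in all 9 captured ones. The difference between captured and crude libraries was -2.03 (two-sided exact permutation test of 9 against 3 libraries, p = 0.00909, adjusted p = 0.0273 over 6 ratios), and 0.00909 is the smallest p this design allows. Ckm to Ckb fell likewise, from 2.45 ± 0.278 to 0.11 ± 0.108, -0.22 ± 0.232 and -0.30 ± 0.0956, a difference of -2.59 (exact p = 0.00909, adjusted p = 0.0273). Ckmt2 to Ckb was at 1.06 ± 0.337 in crude_RNase and 0.81 ± 0.277, 0.40 ± 0.254 and 0.31 ± 0.0879 in the captured groups, and its difference of -0.56 did not pass after adjustment (exact p = 0.0455, adjusted p = 0.0682).

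Among the channels, only the ratio of Vdac1 to Vdac3 differed past the threshold. Captured counts were 2.41 to 3.05 times the median of tested non-mitochondrial genes for Vdac1 and 0.957 to 1.42 times for Vdac3. How far a common low level of most genes shapes this ratio was not tested. The log2 ratio of Vdac1 to Vdac3 was 0.76 ± 0.121 in crude_RNase and 1.38 ± 0.0947, 1.27 ± 0.175 and 0.97 ± 0.0705 in IP_RNase, IP_RNase_ProK and mitoplast_RNase (SD, n = 3 each). Captured libraries were higher by 0.45 (exact permutation p = 0.0182, adjusted p = 0.0364), although the lowest of them, at 0.89, overlapped the highest crude library, at 0.90. Vdac1 to Vdac2 was 0.73 ± 0.208 in crude_RNase and 0.90 ± 0.189 over the 9 captured libraries (exact p = 0.218, adjusted p = 0.218), and Vdac2 to Vdac3 was 0.03 ± 0.165 and 0.31 ± 0.283 (exact p = 0.127, adjusted p = 0.153). With 1 crude library left out the smallest possible p is 0.0364, and the 3 ratios that passed then had adjusted p-values of 0.0727 to 0.145, with values of -2.09 to -2.00, -2.75 to -2.50 and 0.40 to 0.52.

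**Figure D4:**
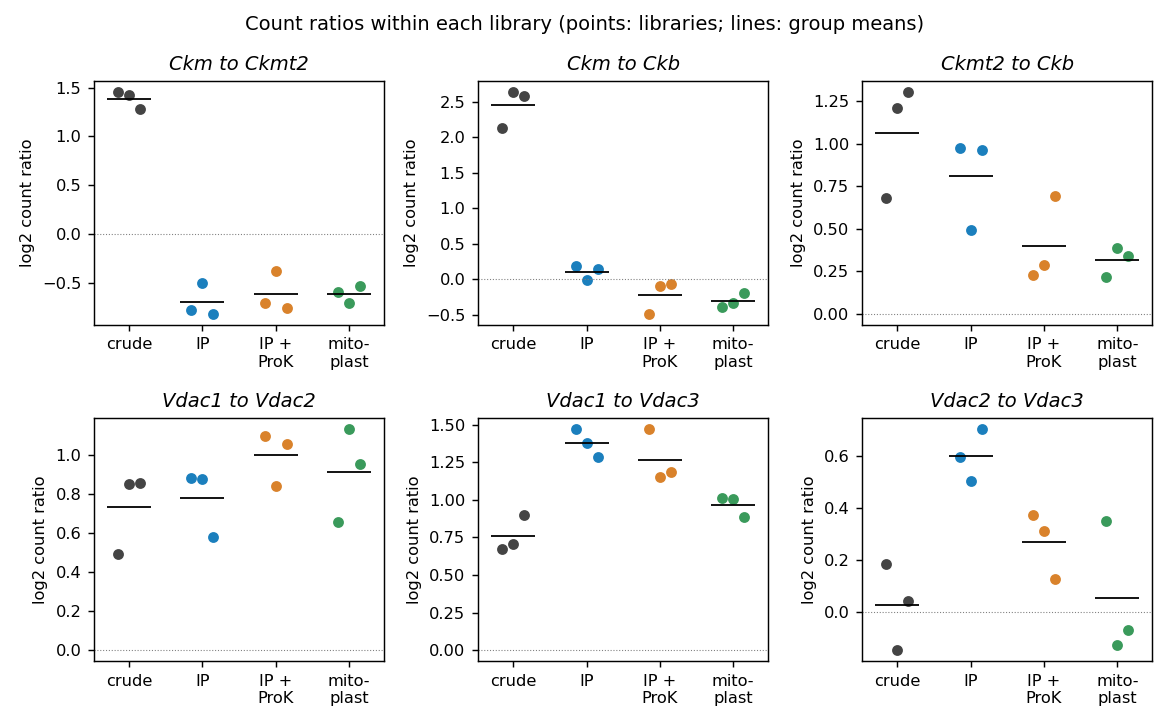
Log2 ratio of the read counts of 2 members in the same library (vertical axis), for 6 pairs of genes. Points are libraries and lines are group means (crude is crude_RNase, IP is IP_RNase, IP + ProK is IP_RNase_ProK, mitoplast is mitoplast_RNase). Ckm to Ckmt2 lies between 1.28 and 1.45 in crude and between -0.82 and -0.38 in captured libraries, and Vdac2 to Vdac3 is highest in IP_RNase, with a mean of 0.60 there and 0.05 in mitoplast_RNase.

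Whether a protease or the removal of the outer membrane changed these messengers was asked by comparing the captured groups. No member passed in any of the 3 comparisons with TMM scaling, whereas mitochondrial mRNA scaling called all 6 higher in IP_RNase_ProK and in mitoplast_RNase against IP_RNase, where it put the median of all genes at 1.13 and 1.12. In IP_RNase_ProK against IP_RNase, 0 of 6 members were called by edgeR, 1 had an unadjusted p under 0.05 and 0 were called by DESeq2. Of all genes, edgeR called 0.14%, and 8.86% had an unadjusted p under 0.05. In mitoplast_RNase against IP_RNase the counts were 0, 2 and 0. Here edgeR called 0.155% of all genes, and 8.93% had an unadjusted p under 0.05. In mitoplast_RNase against IP_RNase_ProK the counts were 0, 0 and 0, against 0.0% of all genes. There 741 genes (2.8%) had an unadjusted p under 0.05 and DESeq2 called 0.

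Ckm differed little between captured groups, with log2 fold changes of -0.0009 (95% interval -0.254 to 0.252) for IP_RNase_ProK against IP_RNase, 0.04 (-0.211 to 0.296) for mitoplast_RNase against IP_RNase and 0.04 (-0.203 to 0.29) for mitoplast_RNase against IP_RNase_ProK. For Ckmt2 the values were -0.09 (-0.293 to 0.117), -0.04 (-0.246 to 0.162) and 0.05 (-0.155 to 0.247). Those intervals leave room for changes of up to about 0.3 on the log2 scale in either direction. In captured libraries Ckm counts were 0.917 to 1.2 times the median of tested non-mitochondrial genes, and those of Ckmt2 1.5 to 1.79 times. How far a common low level of most genes limits the changes that could be seen here was not tested. Vdac1 was at 0.06 (-0.131 to 0.251), -0.03 (-0.226 to 0.16) and -0.09 (-0.281 to 0.0949), and Vdac2 at -0.17 (-0.391 to 0.0476), -0.18 (-0.397 to 0.0427) and -0.01 (-0.225 to 0.213).

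The largest values between captured groups among the 6 were those of Ckb and Vdac3 in mitoplasts. Ckb had 17.7, 25.1 and 19.7 CPM in IP_RNase and 31.1, 26.9 and 27.2 in mitoplast_RNase, without overlap, as had 16.0% of all genes tested. Its log2 fold change was 0.45 ± 0.135 (95% interval 0.179 to 0.721, edgeR unadjusted p = 0.00159, adjusted p = 0.271). Vdac3 had 20.5, 22.6 and 22.9 CPM in IP_RNase and 25.7, 30.6 and 29.3 in mitoplast_RNase, also without overlap, and was at 0.38 ± 0.124 (0.127 to 0.626, unadjusted p = 0.00384, adjusted p = 0.35). In IP_RNase_ProK against IP_RNase, where the ranges of Vdac2 and Vdac3 did not overlap, as those of 16.6% of all genes, Ckb and Vdac3 were at 0.32 (0.0504 to 0.599) and 0.16 (-0.0964 to 0.414), and in mitoplast_RNase against IP_RNase_ProK at 0.13 (-0.127 to 0.378) and 0.22 (-0.0201 to 0.455), where Vdac3 alone of the 6 had ranges without overlap, as had 9.47% of all genes.

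Of 9 other genes of phosphate transfer measured (Ckmt1, the creatine transporter Slc6a8, the creatine synthesis enzymes Gatm and Gamt, 3 adenylate kinases and 2 ADP/ATP carriers), 2 fell in IP_RNase, 3 in IP_RNase_ProK and 2 in mitoplast_RNase against crude_RNase, and 1 rose, Ckmt1 in mitoplast_RNase (DESeq2 called 1, 2 and 2). Over all genes tested the shares lower were 5.09%, 5.04% and 4.54%. The list medians were -0.26, -0.17 and -0.26, beside 0.007, 0.003 and 0.005 for all genes. Slc25a4, the carrier that exchanges ADP and ATP across the inner membrane in muscle, had 1122, 1150 and 952 counts in crude_RNase and 88, 54 and 70 in IP_RNase, which put it at -4.04 ± 0.105 on the log2 scale, below Ckm (edgeR adjusted p = 1.36e-36). Its paralog Slc25a5 was at -0.69 ± 0.205 (adjusted p = 0.0282) and the adenylate kinase Ak3, at -0.39 ± 0.153, did not pass (adjusted p = 0.13).

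Of 17 genes whose products bind VDACs or act with them in permeability and calcium transfer, 4 fell in IP_RNase and 2 each in IP_RNase_ProK and mitoplast_RNase, with medians of -0.09, -0.07 and -0.08 (DESeq2 called 3, 2 and 2), beside 5.09%, 5.04% and 4.54% of all genes. In IP_RNase these were Mcl1, a survival protein of the Bcl-2 family, at -1.46 ± 0.141, Hspa9, the mitochondrial Hsp70 that links VDAC to calcium channels of the endoplasmic reticulum, at -0.75 ± 0.115, Bak1, a pore-forming death protein, at -0.51 ± 0.140, and Tspo, a cholesterol-binding outer membrane protein, at -0.60 ± 0.173 (edgeR adjusted p = 4.69e-12, 2.01e-06, 0.0134 and 0.0207). Mcl1 and Hspa9 also fell in the other captured groups, to -1.48 and -0.65 in IP_RNase_ProK and -1.49 and -0.64 in mitoplast_RNase. The 2 hexokinases of the list were among the genes not called.

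Of 37 other outer membrane proteins, 3 fell in IP_RNase, 7 in IP_RNase_ProK and 5 in mitoplast_RNase, with medians of -0.18, -0.22 and -0.14 (DESeq2 called 2, 3 and 3), beside the same 5.09%, 5.04% and 4.54% of all genes. The 3 genes of IP_RNase are a share near that background. Mtch1, an outer membrane insertase, was at -0.69 ± 0.111 in IP_RNase and Cisd1, an iron-sulfur protein, at -0.69 ± 0.132 (edgeR adjusted p = 5.6e-06 and 0.000144), values near those of Vdac1 and Vdac2. The fusion protein Mfn2 was at -0.27 ± 0.0838 (adjusted p = 0.0383) and the fission receptor Mff, at -0.36 ± 0.124, did not pass (adjusted p = 0.0745). The directions in these lists are those of TMM scaling.

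Genes with patterns closest to each member were found by the root mean square difference of centred log2 CPM over the 12 libraries, among 16536 named genes with a mean of at least 50 counts. For Ckm they were the tropomyosin gene Tpm1 (0.142), the unnamed locus AABR07005775.1 (0.157) and Tpt1 (0.161), where the median gene was 1.50 away. For Ckmt2 they were Ahnak (0.0881), the pyruvate kinase gene Pkm (0.0930) and the myosin-binding protein gene Mybpc1 (0.102), and for Ckb they were Tle5 (0.151), Gatd3a (0.170) and the translation factor gene Eif5a (0.178). Vdac1 was closest to Uaca (0.0821), the muscle gene Nrap (0.0839) and the kinesin gene Kif5b (0.0888). Among the genes reported here, Vdac2 was closest to the muscle gene Klhl41 (0.0679) and the complex I gene Ndufb8 (0.101), and Vdac3 to Ndrg2 (0.124) and Klf9 (0.130). These distances describe 12 libraries in which crude_RNase stands apart, and they are mostly set by the size of that difference.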

How the data were processed

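The authors deposited 1 table of read counts by Ensembl gene; the values are whole numbers with unequal library totals, so no normalisation had been applied. Per the submitters' processing notes, FastQC 0.74, cutadapt 4.6, STAR 2.7.11a and HTSeq were used with mRatBN7.2; the sources used here do not give the strand setting, annotation release or handling of multiply matched reads. Groups follow the titles, and 0 columns belonged to other samples. Replicate pairs differed by more than sampling noise (chi-square per degree of freedom 1.24 to 12.1).

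Counts were tested with edgeR 4.0.16 (R 4.3.3; TMM; filterByExpr, minimum count 10, leaving 26483 genes; glmQLFit and glmQLFTest; 1 model of 4 groups over 12 libraries), checked on simulated data. The simulation changed 200 genes in IP_RNase against crude_RNase, with a common dispersion for all genes. All other genes had the same mean in every group. It thus lacked the larger mitochondrial share of the crude libraries and could not test the scaling. The test recovered 92% of 2-fold and 54% of 1.5-fold changes, with 7 false calls, so smaller changes can go uncalled. The SE is the absolute log2 fold change over the square root of F, with dispersions moderated over genes. Ratios used counts plus 0.5 and SciPy 1.17.1. CPM is not per length, and where counts of different genes were set against each other, gene length was not corrected for. Alternatives were other scalings, DESeq2 1.42.0, no filter, only the 2 groups compared, a replicate block and leaving out each library. From each of 3 pathway lists (phosphate transfer, VDAC partners, outer membrane) up to 4 genes with the smallest p in IP_RNase against crude_RNase were named, and the 3 nearest genes per member, of which 1 each for Vdac2 and Vdac3 is not reported here. Olr1, not an olfactory receptor, was left out of that set. Members and lists were chosen with earlier results of these data known. Gene coordinates and sequences were not used here.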

Additional observations from a re-analysis of the deposited data

How the results depend on the processing

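Against crude_RNase, all 6 members stayed lower and past the threshold with DESeq2, olfactory receptor scaling, scaling on counts outside the mitochondrial chromosome (chosen after seeing the data), no low-count filter, only the 2 groups compared, a replicate block and each library left out. In the order IP_RNase, IP_RNase_ProK and mitoplast_RNase against crude_RNase, library size scaling gave 2, 2 and 2 members higher and 2, 2 and 2 lower. The values that turned positive were 0.46, 0.57 and 0.47 for Vdac1, 0.40, 0.29 and 0.27 for Vdac2, 0.23 and 0.35 for Ckb and 0.047 and 0.25 for Vdac3 (both in the last 2 comparisons). Ckb at -0.15 and Vdac3 at -0.17 in IP_RNase no longer passed. Mitochondrial mRNA scaling gave 5, 6 and 6 higher and 0 lower, at 0.36, 1.47 and 1.50 for Ckm, 2.42, 3.47 and 3.51 for Ckmt2, 2.68, 4.10 and 4.19 for Ckb, 3.29, 4.46 and 4.35 for Vdac1, 3.17, 4.16 and 4.13 for Vdac2 and 2.63, 3.92 and 4.13 for Vdac3. It also called all 6 higher in IP_RNase_ProK and in mitoplast_RNase against IP_RNase. These shifts follow from the construction of the scales, which move all genes together.

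Between captured groups no setting other than mitochondrial mRNA scaling called a member, and, that scale aside, only values near 0 changed sign. In IP_RNase_ProK against IP_RNase, Ckm was at 0.059 with library size, 0.093 with olfactory receptor scaling, 0.00020 with DESeq2 and 0.00075 with the replicate block, and Ckmt2 at 0.0065 with olfactory receptor scaling. In mitoplast_RNase against IP_RNase, Ckmt2 and Vdac1 were at 0.0065 and 0.012 with library size and 0.059 and 0.067 with olfactory receptor scaling, and against IP_RNase_ProK Vdac2 was at 0.0020 with the latter. Leaving out 1 library gave -0.11 to 0.093 for Ckm and -0.018 to 0.11 for Vdac1 in IP_RNase_ProK against IP_RNase. It gave -0.021 to 0.12 for Ckm, -0.068 to 0.0052 for Ckmt2 and -0.11 to 0.020 for Vdac1 in mitoplast_RNase against IP_RNase, and -0.050 to 0.15 for Ckm, -0.00090 to 0.10 for Ckmt2 and -0.085 to 0.033 for Vdac2 against IP_RNase_ProK. Without a change of sign, Vdac2 ranged from -0.23 to -0.083 and from -0.26 to -0.088 in the first 2 of these comparisons, and Ckb from 0.22 to 0.48, from 0.35 to 0.60 and from 0.045 to 0.17.

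With the 3 IP_RNase libraries alone the ratio differences were -2.09, -2.34 and 0.62 for Ckm to Ckmt2, Ckm to Ckb and Vdac1 to Vdac3. None could pass, since 3 against 3 allows no p below 0.1. Leaving out any of the 12 libraries gave -2.09 to -2.00, -2.75 to -2.50 and 0.40 to 0.52. Deviations of same-numbered libraries from their group means correlated at -0.302 to 0.231, and over 0.1 in 3 of 18 pairs. For other-numbered libraries the values were -0.33 to 0.364 and 8 of 36. Replicate numbers thus showed no sign of pairing, but deviations within groups of 3 cannot establish that the samples were unpaired. The replicate block called 1638, 1676 and 1411 genes against crude_RNase, beside 1684, 1719 and 1467.

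Of all genes, 335 higher and 1349 lower, 385 and 1334, and 264 and 1203 were called against crude_RNase. Library size scaling gave 25084 and 189, 25222 and 186, and 25223 and 179 (25273, 25408 and 25402 in all), mitochondrial mRNA scaling 26435 and 14, 26457 and 13, and 26456 and 9 (26449, 26470 and 26465), olfactory receptor scaling 56 and 4481, 78 and 1987, and 53 and 1751 (4537 in the first), and counts outside the mitochondrial chromosome 2283 and 896, 2531 and 876, and 2195 and 840 (3179, 3407 and 3035). DESeq2 called 1135 in the second. Among captured groups the 37, 41 and 0 calls became 24890, 24728 and 1 with mitochondrial mRNA scaling, 147, 116 and 12 with only the 2 groups compared, and 23 with library size in the first. Without single libraries they were 23 to 35, 24 to 41 and 0 to 1: 24 and 27 without IP_RNase 1 and 23 without IP_RNase_ProK 1 in their first comparisons, and 24 and 1 without mitoplast_RNase 3. Where no value above names it, the cause was not tested.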
